A study of Mus musculus with 24 samples.

Results

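The kidneys described here are those of 5 RC/- D53 mice, whose RC allele of Pkd1 had lost, by CRISPR/Cas9 editing of its 3′ UTR, the motif that miR-17 binds, set against those of 5 unedited RC/- mice. These 10 libraries were taken by genotype label from 24 in all, as replicates 23 to 27 (RC/- D53) and 13 to 17 (RC/-). The choice of these groups was made with earlier results of these data known. All mice were C57BL/6, were killed at 18 days of age and carried the RC allele, a missense allele of Pkd1. In both cystic groups the other Pkd1 allele was a floxed allele inactivated by the Ksp-Cre transgene, whose promoter is active in renal tubule epithelium, so RC/- and RC/- D53 share the Cre and the inactivated allele. RNA came from whole kidney, with 1 library per mouse. Other groups served as reference where stated: 5 RC/- D18 mice, in which the motif was deleted in a separate founder (founder 3, against founder 2 for D53), and 3 RC/+ D53 mice, which carry the edited RC allele with an intact floxed allele and no Cre. D53 is thus the progeny of 1 founder, and the sources used here do not tie the RC/- mice to a founder.

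Pkd1 encodes polycystin-1, a membrane protein of tubule cells whose loss of dosage gives rise to kidney cysts. microRNAs of the miR-17 family bind messenger RNAs through a short seed at their 5′ end, and pairing of that seed with a 3′ UTR lowers the stability or translation of the message. Cystic kidneys are known for loss of differentiated tubule function, tubule injury, inflammation and scarring.

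The sequences that define the edit are the miRNA and its site. In the mature miRNA from RefSeq (GRCm38.p6, chr14:115043684-115043706, plus strand) the capitals mark the seed, bases 2 to 8. In the Pkd1 site (GRCm38, chr17:24595716-24595739, plus strand, from the GENCODE M21 transcript) the capitals mark the bases complementary to that seed.
mmu-miR-17-5p: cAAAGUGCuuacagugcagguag
Pkd1 site: cacatatggggcttctGCACTTTa
The complement of the seed occurs 1 time in the 969 bases of the annotated 3′ UTR, at position 193 in exon 46 of 46 (chr17:24595732-24595738). The mature sequences of miR-20a-5p, miR-20b-5p, miR-93-5p, miR-106a-5p, miR-106b-5p and miR-6383 hold the same seed. The exact ends of the D53 deletion were not used here, and read counts per gene do not show the deletion.

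Libraries held 22604262 to 25177218 counts in RC/- and 24565022 to 30837488 in RC/- D53. Both groups had 3 female and 2 male kidneys by their sex-linked transcripts. Levels are given in CPM, read counts scaled to a common library total. Changes are log2 fold changes of RC/- D53 against RC/- on the scale of log2 CPM with a prior count of 2, with their standard error (SE) and the Benjamini-Hochberg adjusted p of limma-trend over 22570 genes, and a gene was called at an adjusted p below 0.05.

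Before the results, a group of transcripts that does not belong to kidney tubules must be set apart. All 5 RC/- D53 libraries carried skeletal muscle transcripts, as did 3 of the RC/- D18 libraries (replicates 20 to 22), while the 16 other libraries did not at a like level. Myh4, the myosin heavy chain of fast muscle fibres, was at 45.7, 57.4, 49.8, 50.3 and 50.2 CPM in RC/- D53 and at 0, 0, 0.0794, 0.0420 and 0 CPM in RC/-. Ckm, muscle creatine kinase, was at 7.46, 11.2, 9.02, 8.53 and 9.06 CPM against 0.299, 0.211, 0.0794, 0.0420 and 0 CPM, and Acta1, skeletal alpha-actin, was at 39.4, 53.04, 44.8, 44.1 and 44.3 CPM against 7.995, 7.43, 5.36, 6.13 and 5.97 CPM. The groups did not overlap for any of these genes. The summed level of 9 defining muscle genes (Acta1, Ckm, Myh1, Myh4, Tnnt3, Tnni2, Tnnc2, Mylpf and Atp2a1) was 163 to 214 CPM in RC/- D53 and 174 to 198 CPM in RC/- D18 replicates 20 to 22. In the other libraries it was 7.15 to 11.8 CPM, of which Acta1 made up most. Over the 8 libraries with muscle transcripts the coefficient of variation of this sum was 8.59%.

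**Figure D1:**
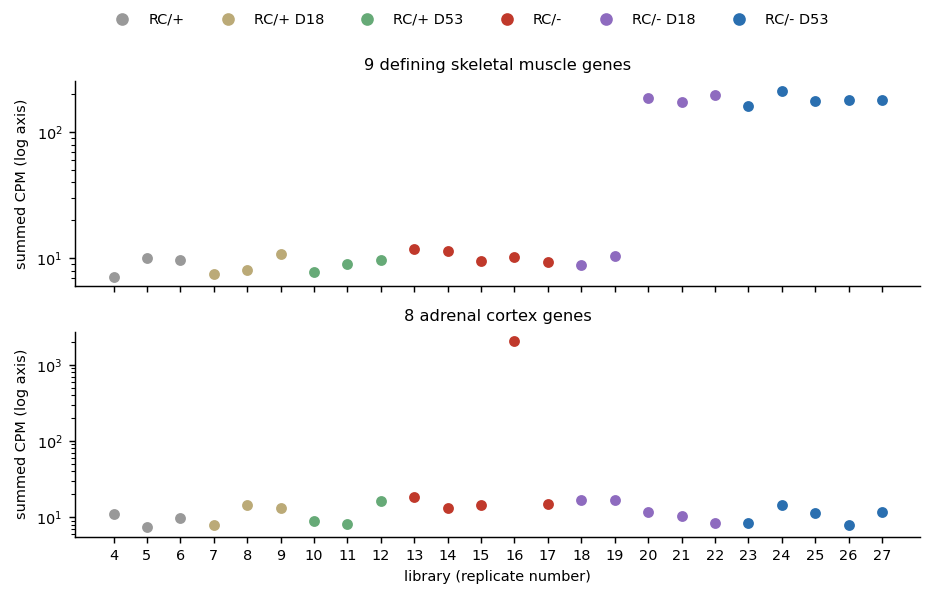
Summed CPM of 9 defining skeletal muscle genes (top) and of 8 adrenal cortex genes (bottom) in each of the 24 libraries, on log axes, coloured by group. The 8 libraries numbered 20 to 27 carry 163 to 214 CPM of the muscle genes, and RC/- replicate 16 carries 2045 CPM of the adrenal genes.

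Of the 75 genes on the muscle list, 69 were tested, and 50 were called higher and 2 lower (Tnnc1 and Actc1) in RC/- D53. The summed level of the list was 462 to 537 CPM in RC/- D53 and 160.4 to 194.5 CPM in RC/-. Beyond the list, 15 further genes called higher had every one of the 8 libraries above every other library. The libraries numbered 20 to 27 thus hold all of RC/- D53 and none of RC/-, and this set and the D53 genotype cannot be told apart by the 10 libraries alone. Only RC/- D18 has libraries on both sides, and a model with the set as a covariate draws the adjustment from its 2 and 3 libraries. Changes in that model are therefore less precise, and a call can be lost with it without a smaller change. That model called 860 genes higher (3.81%) and 936 lower (4.15%). Its counts are given beside the gene lists below where they differ most.

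A different foreign signal lay in the reference group. RC/- replicate 16 carried adrenal cortex transcripts at a summed 2045 CPM, against 13.2 to 18.4 CPM in the other RC/- libraries and 7.90 to 14.7 CPM in RC/- D53. Akr1c18, Cyp21a1 and Cyp11a1, enzymes of steroid metabolism, were among the 10 largest decreases named by the same rule as the other genes. That rule asked for a mean of at least 5 CPM in the higher group, which they reached only through replicate 16. In the other RC/- libraries the 3 genes were at 0.684 to 1.58 CPM. Cyp11a1 was at 1.28, 0.929, 0.914, 318 and 1.06 CPM in RC/- against 0.0649, 0.773, 0.367, 0 and 0.180 CPM in RC/- D53. Without replicate 16 the change of Cyp11a1 was -2.11 instead of -3.74, that of Cyp21a1 -2.23 instead of -3.81 and that of Akr1c18 -2.63 instead of -4.26. All 3 were still called without replicate 16, at low levels below the rule's minimum mean, and none of the 3 with the covariate. The call of Cyp11a1 was also lost in a fit of RC/- and RC/- D53 alone. These genes are not counted among kidney genes below.

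At the gene level 6805 of 22570 genes (30.2%) were called, 2543 higher (11.3%) and 4262 lower (18.9%) in RC/- D53. Scaling by TMM factors instead of total counts moved the median of all genes from -0.08 to 0.00 and gave 3378 higher and 2966 lower, so the balance of directions over all genes depends on the scaling. The libraries of the 2 groups did not overlap for 4241 genes (18.8%). These shares are the background for every list count of RC/- D53 against RC/- below. With the covariate the background is 3.81% higher and 4.15% lower. Leaving out the muscle list left 6753 called genes. Among the 6805 called genes, RC/- D53 replicate 27 was the edited library nearest to RC/- for 2439 (35.8%) and replicate 25 for 1936 (28.5%), against 528 (7.76%) for replicate 23. In a principal component analysis of the 10 libraries the first component held 35.5% of the variance, with scores of 21.2 to 66.3 in RC/- and -47.5 to -29.8 in RC/- D53.

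The targeted gene did not pass the test. Pkd1 (GRCm38, chr17:24549834-24596508) was at 65.2, 58.3, 51.95, 55.1 and 64.4 CPM in RC/- against 60.2, 54.7, 63.5, 58.95 and 38.4 CPM in RC/- D53. The groups overlapped, with replicate 27 of RC/- D53 the lowest of the 10. The change was -0.11 (SE 0.10, adjusted p = 0.462), and 0.01 without replicate 27. Gene counts add up both alleles and all cell types of the kidney, so usage of the RC allele was not measured here. Pkd2, which encodes the partner channel polycystin-2, was at 233 ± 15.9 CPM in RC/- against 252 ± 21.6 CPM in RC/- D53 (mean ± SD of 5 mice), a change of 0.11 (adjusted p = 0.212) that passed the threshold under TMM scaling (0.20, adjusted p = 0.025). Pkd2 also passed with DESeq2 size factors (0.18, adjusted p = 0.037), edgeR (0.20, adjusted p = 0.027) and DESeq2 (0.18, adjusted p = 0.024). Without RC/- D53 replicate 27 it passed too (0.16, adjusted p = 0.040), and in the other settings it did not pass.

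Of the 7 genes the study followed, Myc, Mrc1 and Yap1 were called lower, against 18.9% over all genes (2 lower with TMM scaling and 2 with the covariate). The study named Myc, Mrc1 and Yap1 for these mice, so this count is not independent evidence of a direction. It measured Myc, Yap1, Mrc1 and Mettl3 as protein and Creb1 as phosphorylated protein, and it reports Mettl3 for cell lines. The changes given here are of RNA, so they do not test those protein results. Myc, a transcription factor that drives growth, was at 29.8, 30.03, 33.4, 46.9 and 39.8 CPM in RC/- against 16.5, 15.6, 17.01, 16.4 and 22.2 CPM in RC/- D53. All 5 edited kidneys lay below all 5 unedited ones, a 2.03-fold decrease (log2 -1.02, SE 0.14, adjusted p = 3.40e-06). Mrc1, the macrophage mannose receptor, was at 52.9, 37.6, 52.1, 69.4 and 63.3 CPM against 16.1, 20.5, 23.1, 18.5 and 19.8 CPM, also without overlap, with a change of -1.47 (SE 0.16, adjusted p = 3.36e-07). Yap1, the Hippo pathway coactivator, had a change of -0.13 (adjusted p = 0.0387) that was lost under TMM scaling (-0.04, adjusted p = 0.552) and on leaving out any 1 of RC/- replicates 13, 14 and 16 or RC/- D53 replicates 23, 24, 26 and 27. Creb1, the cAMP response factor, and Mettl3, an RNA methyltransferase, did not pass, at -0.10 (adjusted p = 0.25) for Creb1 and -0.07 (adjusted p = 0.609) for Mettl3, and the sign for Mettl3 turned under TMM scaling (0.02).

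Tubule injury genes showed the largest median fall of the kidney lists. Of 24 tested, 23 were lower and none higher, with a median change of -1.52 against -0.08 over all genes (called lower over all genes, 18.9%). With the covariate 17 were lower, at a median of -1.27. The 1 member not called was Areg, an EGF receptor ligand (-0.78). Bulk tissue does not separate fewer cells of a type from less RNA per cell, here or below.

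Havcr1, the injury molecule KIM-1 of proximal tubule cells, was at 3.46, 8.49, 29.8, 16.1 and 40.2 CPM in RC/- against 0.357, 0.896, 0.880, 0.863 and 0.541 CPM in RC/- D53, an 18.97-fold decrease (log2 -4.25, SE 0.54, adjusted p = 2.05e-06). With the covariate its change was -2.78 (adjusted p = 0.0556). Lcn2, the secreted iron carrier NGAL, was at 219.98, 271, 331, 382 and 466 CPM against 14.1, 22.02, 31.4, 20.9 and 57.8 CPM, a 12.4-fold decrease (log2 -3.63, SE 0.34, adjusted p = 3.98e-08). The groups did not overlap for either gene, which the rule that named the largest changes required, and replicate 27 was the highest of the edited kidneys for Lcn2, at 57.8 CPM. The small proline-rich proteins of cornified epithelium, Sprr2f and Sprr2g, changed by -4.18 (SE 0.48) and -3.23 (SE 0.36). Krt20, an epithelial keratin, was at 5.43, 5.45, 30.03, 41.5 and 23.2 CPM in RC/- against 1.39, 1.55, 1.21, 2.17 and 2.995 CPM in RC/- D53 (log2 -3.07, SE 0.50, adjusted p = 5.00e-05). RC/- replicates 13 and 14 were the lowest of the unedited kidneys for Havcr1, Sprr2f and Krt20.

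**Figure D2:**
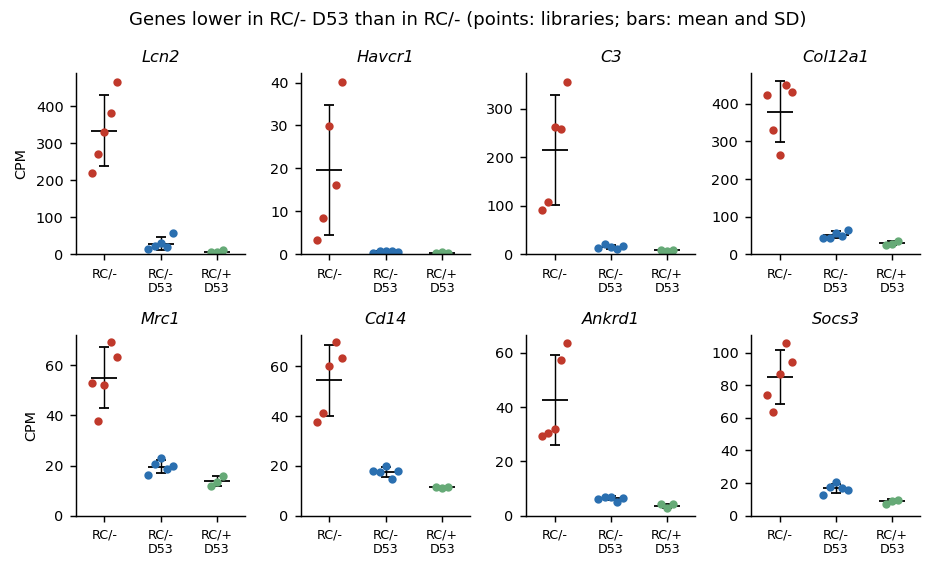
CPM of 8 genes lower in RC/- D53 in each library of RC/-, RC/- D53 (n = 5 each) and RC/+ D53 (n = 3), on linear axes from 0, with mean and SD. Every RC/- D53 library lies below every RC/- library for each gene, and Lcn2 spans 14.1 to 57.8 CPM within RC/- D53. For Lcn2, Havcr1 and C3 the rule that named them required this separation.

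Macrophage transcripts were lower in RC/- D53. On the macrophage list 18 of 22 were lower and none higher (median -0.90), and 9 were lower with the covariate, at a median of -0.89. Cd14, the lipopolysaccharide coreceptor, was at 37.6, 41.1, 59.98, 69.9 and 63.4 CPM in RC/- against 17.9, 17.6, 19.8, 14.6 and 17.8 CPM in RC/- D53 (log2 -1.59, SE 0.13, adjusted p = 6.88e-09). Lyz2, myeloid lysozyme, was at 142, 142, 193, 277 and 209 CPM against 62.4, 77.6, 66.5, 54.5 and 70.2 CPM (log2 -1.50, SE 0.13, adjusted p = 1.76e-08). Neither gene's groups overlapped. Itgax, Trem2, Gpnmb and Mpeg1 were the 4 members that did not pass the test.

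Chemokines and cytokines followed, with 16 of 23 tested lower and 1 higher (median -1.26), and 7 lower with the covariate, at a median of -1.22. The neutrophil attractant Cxcl1 was at 4.45, 2.45, 8.86, 17.2 and 13.98 CPM in RC/- against 0.778, 1.26, 0.806, 0.794 and 1.70 CPM in RC/- D53 (log2 -2.79, SE 0.39), and the monocyte attractant Ccl2 at 4.96, 3.08, 8.82, 8.10 and 8.05 CPM against 1.01, 1.18, 1.10, 0.587 and 1.77 CPM (log2 -2.44, SE 0.31). Cxcl2 changed by -2.56 (adjusted p = 0.000205). With the covariate the calls of Ccl2 (-1.40, adjusted p = 0.0823) and Cxcl2 (-1.80, adjusted p = 0.202) were lost. The member that rose was Cxcl12, the stromal chemokine that binds CXCR4, from 202 ± 35.3 to 362 ± 23.2 CPM (means ± SD of 5 mice, adjusted p = 3.05e-07).

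Complement gave 12 lower and 1 higher of 19 tested (median -0.79), with 7 lower and none higher with the covariate, at a median of -0.69. C3, the central component of the cascade, was at 91.8, 108, 263, 258 and 356 CPM in RC/- against 13.6, 20.6, 14.7, 11.01 and 17.6 CPM in RC/- D53, a 12.4-fold decrease (log2 -3.63, SE 0.27, adjusted p = 2.42e-09). C4b, a classical pathway component, changed by -2.12 (SE 0.29), and RC/- replicate 16 was the highest at 50.7 CPM. Cfp, properdin, changed by -1.09 (SE 0.15).

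The interferon list depended on 1 kidney. It had 7 of 22 lower and 1 higher (median -0.48), but 16 lower without RC/- D53 replicate 24, and none lower with the covariate, at a median of -0.45. The shares over all genes were 18.9% lower and 11.3% higher. Gbp2, an interferon-induced GTPase, was at 8.79, 28.5, 11.1, 8.53 and 7.83 CPM in RC/- D53 and 14.9, 17.4, 22.7, 26.95 and 22.3 CPM in RC/-, so that replicate 24 lay above every unedited kidney. Oasl2, an interferon-induced antiviral gene, showed the same kidney apart, at 35.1 CPM against 11.4 to 16.8 CPM in the other edited ones. Rsad2, viperin, was the member that rose (0.71, SE 0.09, adjusted p = 2.48e-06).

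Matrix genes were lower in 27 of 30 (median -0.93), with Lum, Dcn and Mmp2 not called. The list lost most of its calls with the covariate, which left 3 lower and a median of -0.20. Col12a1, a fibril-associated collagen, was at 423, 329, 263, 450.3 and 431 CPM in RC/- against 42.5, 44.8, 57.3, 48.6 and 65.3 CPM in RC/- D53, a 7.27-fold decrease (log2 -2.86, SE 0.20, adjusted p = 1.33e-09) that held with the covariate (-2.21, adjusted p = 0.000271). Timp1, the metalloproteinase inhibitor, changed by -2.83 (SE 0.31). The type I collagen gene Col1a1 changed by -1.62, and by -0.69 (adjusted p = 0.202) with the covariate.

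Smooth muscle and myofibroblast genes were lower in 10 of 17 and higher in 1 (median -0.70, with 4 lower, 2 higher and a median of -0.44 with the covariate). Actg2, enteric smooth muscle actin, was at 30.2, 17.1, 9.45, 29.4 and 32.9 CPM in RC/- against 1.59, 1.26, 1.94, 1.28 and 5.02 CPM in RC/- D53 (log2 -3.45, SE 0.43, adjusted p = 1.65e-06), and Cnn1, calponin, changed by -2.42 (SE 0.31). Acta2, smooth muscle actin, was at 630.2, 437, 310.3, 539.99 and 483 CPM against 152, 109, 177, 145 and 292 CPM, with a change of -1.50 (adjusted p = 9.46e-05) and -0.73 (adjusted p = 0.325) with the covariate. Replicate 27 was the highest edited kidney for all 3 genes. Itga8, an integrin of mesangial and interstitial cells, was the member that rose (0.65, adjusted p = 0.0125). Under TMM scaling 2 rose.

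Of 28 targets and ligands of Hippo and growth factor signalling, 19 were lower and none higher (median -0.74), with 1 higher under TMM scaling and 13 lower with the covariate, at a median of -0.63. Ankrd1, a YAP target, was at 29.2, 30.5, 31.9, 57.3 and 63.7 CPM in RC/- against 6.19, 7.002, 7.001, 5.21 and 6.57 CPM in RC/- D53 (log2 -2.64, SE 0.26, adjusted p = 7.81e-08). Socs3, a feedback inhibitor induced by STAT3, was at 74.1, 63.5, 87.1, 106 and 94.01 CPM against 12.9, 17.5, 20.5, 16.9 and 16.1 CPM, a 5.02-fold decrease (log2 -2.33, SE 0.13, adjusted p = 6.06e-11), which was the smallest adjusted p of the comparison. Ereg, an EGF receptor ligand, was near the detection limit, at 0.299, 0.380, 0.278, 0.294 and 0.531 CPM in RC/- against 0, 0.122, 0.0733, 0 and 0.0361 CPM in RC/- D53, and its call was lost with the covariate (adjusted p = 0.0561).

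Few cell division genes were called. Of 30 genes of replication and mitosis, 1 was lower and none higher (median -0.21), against 18.9% called lower over all genes, and with the covariate none was called and the median was 0.63. The 1 was Ccne1, cyclin E1 (-0.79, adjusted p = 0.0413), which was lost under TMM scaling (-0.70, adjusted p = 0.0613) and on leaving out any 1 of RC/- replicates 13, 15 and 16 or RC/- D53 replicates 23, 24 and 26. By library the median over the list, relative to the RC/- mean, was -0.36, -0.72, 0.10, -0.03 and -0.12 in RC/- D53 and ran from -0.60 to 0.34 in RC/-, so the groups overlapped.

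Glycolysis was mixed, with 9 of 19 lower and 2 higher (median -0.20, and 2 lower, none higher and a median of -0.15 with the covariate). The shares over all genes were 18.9% lower and 11.3% higher, so the count of higher members was near its share. Slc16a3, the lactate exporter MCT4, was at 51.8, 52.96, 35.2, 53.1 and 31.2 CPM in RC/- against 12.8, 10.1, 12.9, 10.4 and 22.99 CPM in RC/- D53 (log2 -1.72, SE 0.31, adjusted p = 0.000131). Hk2, hexokinase 2, and Pfkfb3, a regulator of phosphofructokinase, changed by -1.24 (adjusted p = 0.0116) and -0.71 (adjusted p = 0.0012). Pfkm, the muscle isoform of phosphofructokinase (0.34), and Slc16a1, the lactate carrier MCT1 (0.32), were higher, the latter not without RC/- D53 replicate 26. With the covariate the calls of Slc16a3 (-1.40, adjusted p = 0.12) and Pfkfb3 (-0.85, adjusted p = 0.0601) were lost. So were those of Pfkm (0.25, adjusted p = 0.242) and Slc16a1 (0.03, adjusted p = 0.937). The part of the muscle transcripts in the change of Pfkm was not tested beyond the covariate.

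In the opposite direction, genes of tubule function were higher in RC/- D53. Of 30 proximal tubule transport genes 28 were higher and none lower (median 0.92, against 11.3% called higher over all genes), and of 32 proximal tubule metabolism genes 25 were higher and none lower (median 0.94). With the covariate 11 and 10 were higher, at medians of 0.73 and 0.69. The libraries did not overlap for 26 and 21 of them, against 18.8% over all genes. Slc13a1 and Slco1a1 were the transport genes not called.

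Lrp2, the endocytic receptor megalin, was at 619.5, 559, 406, 230.2 and 343 CPM in RC/- against 948, 1135, 867, 1085 and 915 CPM in RC/- D53 (log2 1.28, SE 0.17, adjusted p = 2.84e-06). Ass1, argininosuccinate synthase, was at 569, 564, 447, 229 and 385 CPM against 1120.4, 1051, 1162, 1358 and 1219 CPM (log2 1.496, SE 0.17, adjusted p = 5.24e-07). G6pc, the last enzyme of gluconeogenesis, was at 220.03, 195, 162, 118 and 136 CPM in RC/- against 383, 409, 381, 745 and 449 CPM in RC/- D53, where replicate 26 lay far above the others. Hpd, a tyrosine catabolic enzyme, had the largest change of the metabolism list, 2.27 (SE 0.49, adjusted p = 0.000999), with overlapping groups and a change of 0.88 (adjusted p = 0.581) with the covariate. Slc6a20b and Slc5a12, carriers of amino acids and of lactate, changed by 1.24 (SE 0.13) and 1.21 (SE 0.18). Ugt3a1, a glycosyltransferase, Slc22a22, an organic anion carrier, and Malrd1 were among the 10 largest increases named by a rule on size and separation, at 1.92, 1.80 and 2.02. Slitrk6, Kcnf1, a potassium channel subunit, and Corin, a serine protease, were also among them, at 2.13, 1.93 and 1.78. The calls of Slc5a12 (0.73, adjusted p = 0.149), Ugt3a1 (1.10, adjusted p = 0.0667) and Slc22a22 (1.47, adjusted p = 0.108) were lost with the covariate.

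**Figure D3:**
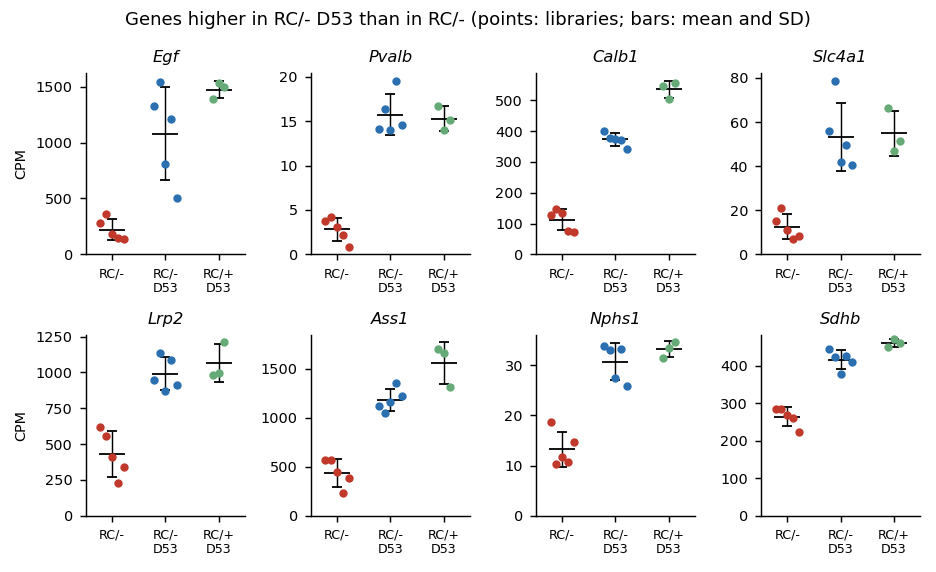
CPM of 8 genes higher in RC/- D53 in each library of RC/-, RC/- D53 (n = 5 each) and RC/+ D53 (n = 3), on linear axes from 0, with mean and SD. Every RC/- D53 library lies above every RC/- library for each gene, and Egf spans 508 to 1544 CPM within RC/- D53. For Egf, Pvalb, Calb1 and Slc4a1 the rule that named them required this separation.

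Genes of mitochondrial energy metabolism rose by smaller amounts. On the fatty acid oxidation list 24 of 30 were higher and none lower (median 0.38), and 3 were higher with the covariate, at a median of 0.17. The respiratory chain list gave 24 of 26 higher and none lower (median 0.44), and 16 with the covariate, at a median of 0.38. Of the 13 protein-coding genes of the mitochondrial genome 11 were higher (median 0.54), and 5 with the covariate, at a median of 0.46. Transcripts of the mitochondrial genome made up 3.16% to 4.05% of all counts in RC/- and 4.88% to 5.71% in RC/- D53.

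Acsl1, which activates fatty acids, was at 357, 257, 229, 238 and 238 CPM in RC/- against 499, 455, 511, 548 and 495 CPM in RC/- D53 (log2 0.95, SE 0.10, adjusted p = 1.04e-07). Acaa1b, a peroxisomal thiolase, and Slc27a2, a fatty acid carrier, changed by 1.06 and 0.87. Sdhb, a subunit of complex II, was at 283, 286, 268, 260.2 and 223 CPM against 445, 422, 377, 425 and 409.99 CPM (log2 0.66, SE 0.06, adjusted p = 8.24e-08). Ndufs1 of complex I and Uqcrc2 of complex III changed by 0.65 (SE 0.07) and 0.57 (SE 0.06). mt-Nd2 and mt-Nd4, complex I genes of the mitochondrial genome, changed by 0.70 and 0.67. The covariate ended the calls of Acaa1b (0.58, adjusted p = 0.197), Slc27a2 (0.64, adjusted p = 0.178) and mt-Nd2 (0.42, adjusted p = 0.112). The change of mt-Nd3 (1.31) is uncertain, since its nuclear copy Gm28438 differed among libraries in its own way. These genes are also abundant in muscle, and the part of the muscle transcripts in their change was not tested beyond the covariate.

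Of the distal nephron lists, the thick ascending limb had 14 of 19 higher and 1 lower (median 0.72, with 7 higher, none lower and a median of 0.74 with the covariate). The distal convoluted and connecting tubule had 12 of 17 higher and 2 lower (median 0.81, with 10 higher, none lower and a median of 0.80 with the covariate). Egf, the growth factor made by these segments, was at 279, 364, 181, 149 and 139 CPM in RC/- against 1329.6, 1544, 809, 1208 and 508 CPM in RC/- D53, a 4.85-fold increase (log2 2.28, SE 0.27, adjusted p = 7.69e-07). Within the edited kidneys replicate 27 was lowest and replicate 24 highest. The groups did not overlap, which the rule that named the largest changes required of Egf and Calb1. Calb1, the calcium buffer calbindin, was at 128, 148, 134, 77.03 and 74.1 CPM against a narrow 399, 377, 375, 372 and 342 CPM (log2 1.79, SE 0.16, adjusted p = 1.80e-08).

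Pvalb, the calcium buffer parvalbumin, headed the 10 largest increases named by the rule on size, from 3.72, 4.22, 3.14, 2.14 and 0.885 CPM in RC/- to 14.1, 16.4, 13.97, 19.5 and 14.6 CPM in RC/- D53 (log2 2.61, SE 0.31, adjusted p = 1.09e-06). Parvalbumin is also abundant in fast muscle, and the part of the muscle transcripts in its change was not tested beyond the covariate (1.84, adjusted p = 0.0321). In libraries without muscle transcripts it was at 16.7, 13.97 and 15.2 CPM in RC/+ D53 and at 12.2 and 13.6 CPM in RC/- D18 replicates 18 and 19. The distal convoluted tubule members that were lower were Trpv5, the apical calcium channel (-0.58, adjusted p = 0.00859), and Stk39, the kinase that activates the salt cotransporters (-0.36, adjusted p = 0.000955). In the ascending limb the lower member was Cldn14, a tight junction protein at a mean of 0.851 ± 0.225 CPM in RC/- (-0.99, adjusted p = 0.0241), whose call was lost without RC/- replicate 15 or 17 or RC/- D53 replicate 23 or 25. Ppp1r1a, a phosphatase inhibitor, and Ptger3, a prostaglandin receptor of the ascending limb, changed by 1.20 and 1.02, the latter 0.99 (adjusted p = 0.0863) with the covariate.

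Both cell types of the collecting duct moved, in opposite directions. Of 15 intercalated cell genes 10 were higher and none lower (median 0.57), and of 18 principal cell genes 8 were lower and 1 higher (median -0.42, with 5 lower, none higher and a median of -0.43 with the covariate). The shares over all genes were 11.3% higher and 18.9% lower. Slc26a4, the chloride and bicarbonate exchanger pendrin, was at 45.6, 43.6, 61.3, 30.9 and 41.4 CPM in RC/- against 108, 129, 102, 123 and 82.8 CPM in RC/- D53 (log2 1.30, SE 0.13, adjusted p = 7.55e-08), and Hmx2, a transcription factor, changed by 1.07 (SE 0.14). Slc4a1, the anion exchanger of type A intercalated cells and of red cells, was at 14.96, 20.9, 11.1, 7.01 and 8.27 CPM against 55.9, 78.6, 42.01, 49.8 and 40.6 CPM (log2 2.16, SE 0.21, adjusted p = 6.71e-08). Red cell genes moved with it, and their part in its change was not tested: 6 of 7 on that list, Slc4a1 among them, were higher (3 without RC/- replicate 15 or 17 or RC/- D53 replicate 23), and the summed level was 469.8 to 1336.5 CPM in RC/- D53 and 246 to 456 CPM in RC/-.

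Gata3, a transcription factor of the collecting duct, was at 94.1, 105, 115, 107 and 102 CPM in RC/- against 43.2, 56.4, 49.6, 45.6 and 61.7 CPM in RC/- D53, without overlap (log2 -1.03, SE 0.10, adjusted p = 7.59e-08). Elf5, another transcription factor of principal cells, and Krt7, a keratin of ducts, changed by -1.04 (SE 0.21) and -0.95 (SE 0.09). The water channel genes Aqp2, Aqp3 and Aqp4 had changes of -0.70, -0.39 and -0.16 and did not pass the test. Sgk1, an aldosterone-regulated kinase, was the member that rose (0.69, adjusted p = 0.0167), lost without RC/- replicate 15 or 17.

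Outside the tubule, 8 of 10 podocyte genes were higher and 2, Synpo and Plce1, lower (median 0.95, with 1 lower under TMM scaling and none with the covariate). Nphs1, nephrin, was at 18.7, 10.3, 11.8, 10.8 and 14.7 CPM in RC/- against 33.8, 33.1, 27.5, 33.2 and 25.9 CPM in RC/- D53, without overlap (log2 1.23, SE 0.14, adjusted p = 4.12e-07). Cdkn1c, the cell cycle inhibitor p57, changed by 1.64 (SE 0.37). Of 12 endothelial genes 4 were higher and none lower (median 0.15, with 1 higher and a median of 0.37 with the covariate), among them Tek, the angiopoietin receptor (0.61, adjusted p = 0.000425), Emcn (0.50) and Plvap (0.44). The share called higher over all genes was 11.3%, and 3.81% with the covariate.

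Of 22 cholesterol synthesis genes 4 were higher and none lower (median 0.03, and 2 higher and a median of -0.06 with the covariate). Over all genes 11.3% were called higher and 18.9% lower. Hmgcs1, HMG-CoA synthase, changed by 0.64 (adjusted p = 1.11e-05) and the isomerase Ebp by 0.53. The list of cystic disease and cilium genes had no stable direction. It gave 6 of 25 lower and 1 higher with total counts (18.9% and 11.3% over all genes), 1 lower and 3 higher under TMM scaling and none with the covariate. Bicc1, an RNA-binding protein whose loss gives cysts, was at 366, 366, 370.4, 318 and 487 CPM in RC/- against 275, 269.6, 309, 253 and 241 CPM in RC/- D53 (-0.49, adjusted p = 0.000855, and -0.40, adjusted p = 0.00257, under TMM scaling). The list's counts also moved with the libraries used, to 2 lower without RC/- replicate 17 and 3 lower without RC/- replicate 14 or RC/- D53 replicate 24, 26 or 27. Umod, uromodulin, was the member called higher with total counts (0.39, adjusted p = 0.0235), lost without RC/- replicate 16 or 17 or RC/- D53 replicate 23 or 24.

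**Figure D4:**
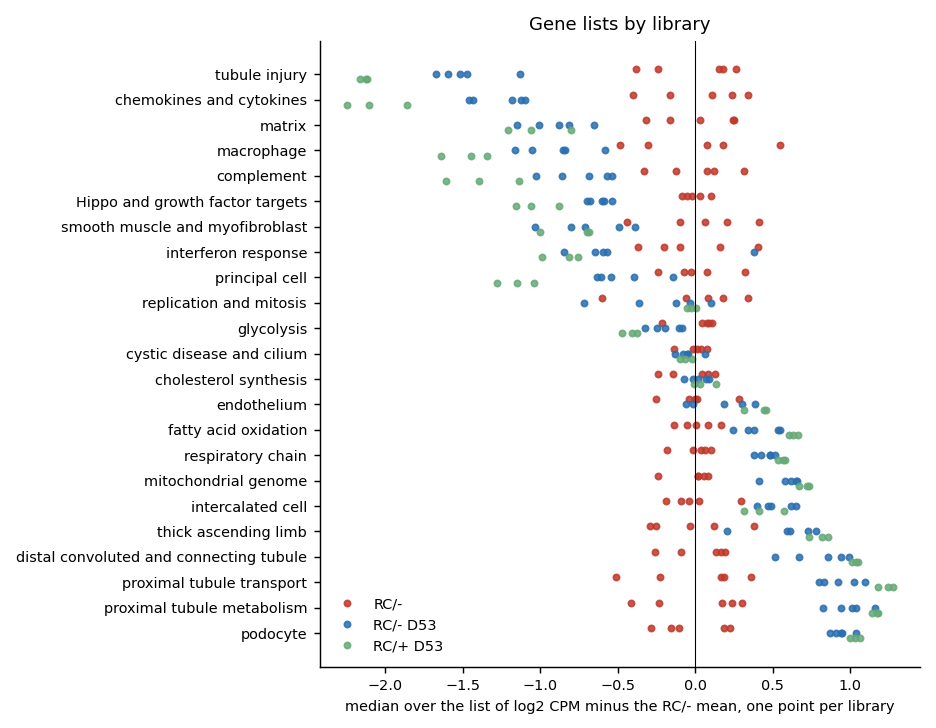
Median over each gene list of log2 CPM minus the mean of RC/-, one point per library, for RC/- and RC/- D53 (n = 5 each) and RC/+ D53 (n = 3). The RC/- D53 points run from -1.67 to -1.13 for tubule injury, and for the interferon list one RC/- D53 library, replicate 24, lies at 0.38 while the others lie from -0.85 to -0.57.

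Seen by library, the edited kidneys held together on most lists. The median over the tubule injury list, relative to the RC/- mean, was -1.60, -1.52, -1.47, -1.67 and -1.13 in RC/- D53 replicates 23 to 27, and that over proximal tubule transport was 0.92, 1.03, 0.80, 1.10 and 0.83. Replicate 27 lay nearest to RC/- for tubule injury, matrix, smooth muscle, thick ascending limb and distal convoluted tubule. Replicate 24 lay nearest for the macrophage, interferon and principal cell lists. Over the called genes the median SD of log2 CPM was 0.165 in RC/- D53 and 0.192 in RC/-.

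How far the edited cystic kidneys stood from kidneys with the same edited allele and no Cre was read against RC/+ D53. Of 22570 genes 587 (2.6%) were called, 554 higher (2.45%) and 33 lower in RC/- D53, and 39 of those higher were on the muscle list. Principal cell genes led the kidney lists, with 10 of 18 higher and none lower (median 0.73), followed by macrophage genes with 12 of 22 (median 0.61) and tubule injury genes with 9 of 24 (median 0.58). Complement had 6 of 19 higher and Hippo and growth factor targets 8 of 28 (4 under TMM scaling). With the covariate 7 principal cell, 6 tubule injury and 2 Hippo and growth factor genes were higher, and no macrophage, complement or muscle gene was. The medians with the covariate were 0.58 for both the macrophage and the complement list, and 0.04 for the muscle list (1.73 without it). The covariate marks the very libraries that carry muscle transcripts, so it takes up the muscle signal by design, and the muscle values are no separate result. On the proximal tubule transport list 0 of 30 were called (median -0.31), although the 3 RC/+ D53 libraries lay above all 5 RC/- D53 libraries for 14 of them (3.45% over all genes) and 2 were lower with the covariate. On the metabolism list 1 of 32 was lower and on the fatty acid oxidation list 2 of 30 (8 with the covariate), and no member of the respiratory chain list (2 lower with the covariate) or podocyte list was called. The 3 RC/+ D53 libraries still lay above all 5 RC/- D53 libraries for 10 metabolism, 10 fatty acid oxidation and 12 of 26 respiratory chain genes. For the podocyte list this held for 1 of 10. Leaving out any 1 RC/+ D53 library lowered the 587 calls to between 313 and 384.

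Some of these genes had large differences. S100a14, an epithelial calcium-binding protein, was at 24.9, 27.7, 29.5, 23.2 and 38.7 CPM in RC/- D53 and 4.02, 4.18 and 5.005 CPM in RC/+ D53 (log2 2.67, adjusted p = 5.45e-07). Trpv6, an epithelial calcium channel, was at 14.2, 16.3, 14.9, 11.4 and 13.1 CPM against 4.65, 3.71 and 3.29 CPM (log2 1.83, adjusted p = 2.16e-06). Gata3 was at 23.2, 20.2 and 18.8 CPM in RC/+ D53 (log2 1.30, adjusted p = 3.13e-07), Elf5 differed by 1.51 (adjusted p = 0.000392) and Lcn2 by 1.81 (adjusted p = 0.00867). For Havcr1 and C3 the differences from RC/+ D53 were 0.73 (adjusted p = 0.691) and 0.91 (adjusted p = 0.15), and did not pass the test. Among genes higher in RC/- D53 than in RC/-, Egf differed from RC/+ D53 by -0.55 (adjusted p = 0.475), Calb1 by -0.52 (adjusted p = 0.152) and Lrp2 by -0.10 (adjusted p = 0.891), and none of these passed the test. G6pc was lower in RC/- D53 (-0.84, adjusted p = 0.0222).

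Whether the deletion from founder 2 gave kidneys that differ from those of founder 3 was read by setting RC/- D53 directly against RC/- D18. Here 60 genes (0.266%) were called, 55 higher (0.244%) and 5 lower in RC/- D53, and 2993 had an unadjusted p below 0.05. With only the 3 RC/- D18 libraries that carry muscle transcripts the count was 69, of which 37 were among the 60. The calls rested on few libraries: leaving out RC/- D53 replicate 25 left 19, RC/- D18 replicate 22 left 23, RC/- D53 replicate 27 left 36 and RC/- D18 replicate 19 left 39. DESeq2 called 276.

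Of the 9 named genes that differed, 6 were higher in RC/- D53. All but Gata3 were named by the rule that took called genes from this comparison, so these counts are set by that rule. S100a14 was at 24.9, 27.7, 29.5, 23.2 and 38.7 CPM in RC/- D53 and 10.8, 10.2, 8.95, 17.1 and 8.60 CPM in RC/- D18 (log2 1.39, adjusted p = 0.00473). Trpv6 was at 6.70, 6.56, 4.94, 7.45 and 5.97 CPM in RC/- D18 (log2 1.14, adjusted p = 0.00329). Aldh1a1, a retinaldehyde dehydrogenase, Dcdc2a, a ciliary doublecortin protein, and Btc, the EGF receptor ligand betacellulin, differed by 1.07, 1.02 and 0.97 (adjusted p = 0.0134, 0.00913 and 0.00994). On the lists, the tubule injury members Krt8, Krt18 and Lgals3, the principal cell members Gata3 and Scnn1g and the cytokine Csf1 were called higher in RC/- D53.

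Fewer genes were lower in RC/- D53 than in RC/- D18. Mt1, a metallothionein that binds zinc, was at 73.1, 79.4, 76.2, 92.1 and 76.03 CPM in RC/- D53 and 161, 155, 108, 295 and 174 CPM in RC/- D18 (log2 -1.09, adjusted p = 0.0293). Slc30a1, the zinc exporter ZnT1, was at 62.2, 60.3, 68.9, 61.1 and 57.05 CPM against 75.9, 77.5, 81.5, 95.2 and 89.6 CPM (log2 -0.44, adjusted p = 0.00994). The groups did not overlap for either gene, which the rule that named both genes required. In RC/- Mt1 was at 106, 165, 174, 168 and 75.4 CPM and Slc30a1 at 61.9, 64.3, 58.1, 49.1 and 51.4 CPM. Vwa8, a mitochondrial ATPase, differed by -0.38 (adjusted p = 0.0339).

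**Figure D5:**
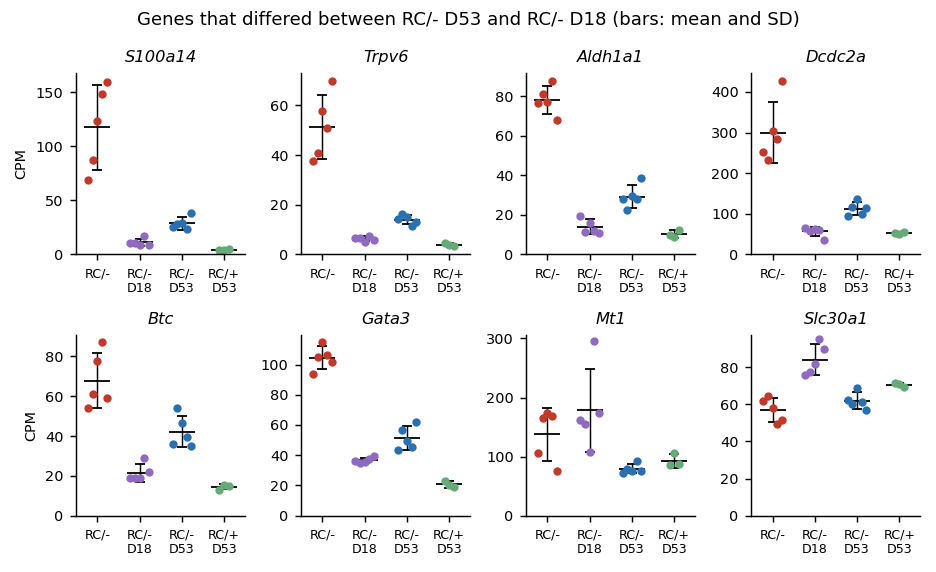
CPM of 8 genes called between RC/- D53 and RC/- D18, in each library of RC/-, RC/- D18, RC/- D53 (n = 5 each) and RC/+ D53 (n = 3), on linear axes from 0, with mean and SD. For S100a14 the RC/- D53 libraries lie at 23.2 to 38.7 CPM and the RC/- D18 libraries at 8.60 to 17.1 CPM.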

How the data were processed

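RNA from whole kidneys of 24 mice was sequenced, 1 library per mouse. The deposited values are raw read counts per gene, which the authors made with FastQC, Trim Galore 0.6.3 and STAR 2.5.3a on GRCm38 with Ensembl annotation. The strand setting of the counting is not given in the sources used here, so reads of overlapping and antisense genes cannot be told apart. Column headers were matched to the numbers that end the sample titles.

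Counts were scaled to CPM by library totals, 20379982 to 30837488 over all 24 libraries. Of 54532 genes, the 22570 whose log2 CPM averaged -3 or more were tested with limma-trend (limma 3.58.1, R 4.3.3), prior count 2, in 1 model of the 6 group means, with Benjamini-Hochberg adjustment at 0.05. Limma-trend and this limit on expression follow the study's stated method, and edgeR 4.0.16 and DESeq2 1.42.0 served as alternatives. Other alternatives were TMM and DESeq2 scaling, other filters and prior counts, sex or the libraries numbered 20 to 27 as a covariate, and leaving out each library. The comparison with RC/- D18 replicates 20 to 22 alone was chosen after seeing the data. The scripts were tested on simulated data.

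Named genes were the 7 study genes, markers and the 10 largest changes each way that passed with 2 scalings and did not overlap. These 10 also had a mean of at least 5 CPM, were not on the muscle list and kept their sign with the covariate. Also named were the 3 largest of each list with up to 2 in the other direction, and the 5 largest each way against RC/- D18. Those against RC/- D18 likewise had to pass with 2 scalings and not overlap. The groups, lists and named genes were chosen with earlier results of these data known. All members of the lists were matched to the 54532 genes, 3 by synonym. p-values measure the spread between mice. A few genes that the rule or lists would name are not reported here.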

Additional observations from a re-analysis of the deposited data

Results flagged for a closer look

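Within groups of 5 libraries, 1 library stood far from the others for some named genes, which chance gives for about 1 in 20 groups. With the many named genes looked at, chance alone would give several such cases. In RC/- replicate 16 this held for the adrenal genes Akr1c18 (342 CPM), Cyp21a1 (246 CPM), Cyp11a1 (318 CPM) and Hsd3b1 (452 CPM) and for C4b (50.7 CPM). In RC/- D53 replicate 24 it held for the interferon genes Gbp2 (28.5 CPM) and Oasl2 (35.1 CPM), for the muscle gene Tnnt3 (29.1 CPM) and for Akr1c18 (0.651 CPM) and Hsd3b1 (1.18 CPM). RC/- D53 replicate 27 stood apart for Myc (22.2 CPM), Actg2 (5.02 CPM), Timp1 (4.37 CPM) and Slc16a3 (22.99 CPM). Single genes stood apart in RC/- D53 replicate 26 (G6pc, 745 CPM), RC/- replicate 13 (Acsl1, 357 CPM) and RC/- replicate 17 (mt-Nd4, 1937 CPM).

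The 2 edited lines differed by test in 9 named genes, given as log2 fold changes of RC/- D53 against RC/- D18 with limma-trend adjusted p. All but Gata3 were named by the rule that took called genes from this comparison, so their number is set by that rule. S100a14 (1.39, adjusted p = 0.00473), Trpv6 (1.14, adjusted p = 0.00329), Aldh1a1 (1.07, adjusted p = 0.0134), Dcdc2a (1.02, adjusted p = 0.00913), Btc (0.97, adjusted p = 0.00994) and Gata3 (0.47, adjusted p = 0.0442) were higher in RC/- D53. Mt1 (-1.09, adjusted p = 0.0293), Slc30a1 (-0.44, adjusted p = 0.00994) and Vwa8 (-0.38, adjusted p = 0.0339) were lower.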

How the results depend on the processing

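Of 6805 genes called between RC/- D53 and RC/-, 1481 (634 higher, 847 lower) also changed by 1 or more on the log2 scale, and with the libraries numbered 20 to 27 as a covariate 1796 (860 higher, 936 lower) were called, 1641 of them among the 6805. Leaving out 1 library gave 5879 to 6826 calls, 2238 to 2633 higher and 3608 to 4193 lower. Against RC/- D18 the 60 calls became 13 with the fold minimum, 276 with DESeq2, 163 with the covariate and 19 to 59 without 1 library. Against RC/+ D53 the 587 became 193, 287 with the covariate and 313 to 579 without 1 library. The direction turned with the covariate for Pkd1 (0.032), Mettl3 (0.18), Ccne1 (0.052), Slc30a1 (-0.082), Ckm (-1.27), Myh1 (-0.69), Myh4 (-0.31), Tnnt3 (-1.82), Tnni2 (-1.22), Mylpf (-0.16), Ldb3 (-0.52) and Ucp1 (-1.60). Pkd1 ranged from -0.17 to 0.01 and Mettl3 from -0.10 to 0.00069 without 1 library. Mettl3 also turned with TMM factors (0.020), DESeq2 size factors (0.0073), edgeR (0.024) and DESeq2 (0.012). The covariate marks the libraries with muscle transcripts, so for the muscle genes among these it takes up their signal by design. For the other genes the cause was not tested. In the named genes 2319 of the recomputed values kept direction and call, 106 lost the call, 51 of these with the covariate, and 5 gained it. No paired analysis was possible because the labels do not give the litter of each mouse. The replicate numbers only count the libraries, so any shared litters across groups were not modelled. The covariate rests on 2 against 3 RC/- D18 libraries, and gene counts do not separate the Pkd1 alleles.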

Other observations

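Fat and nuclear mitochondrial copies differed among libraries outside the lists above. Lep, the fat hormone leptin, was at 3.55, 2.75, 2.86, 4.996 and 5.22 CPM in RC/- and at 0.389, 0.407, 0.477, 0.897 and 0.541 CPM in RC/- D53, without overlap. Among the other fat cell genes, only Retn, resistin, was also called lower (-2.34), and 6 of 8 were not called. The Retn call was lost without RC/- replicate 13 (-1.71, limma-trend adjusted p = 0.055). The summed level of the fat cell list ran from 117 to 908 CPM within RC/-. Gm28438, a near-identical nuclear copy of mt-Nd3, was at 7.05, 10.1, 9.25, 9.36 and 1.24 CPM in RC/- and at 1.75 to 2.45 CPM in RC/- D53, while mt-Nd3 itself was at 1.09 to 1.86 CPM in RC/- and 2.27 to 4.98 CPM in RC/- D53.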
